A study of Drosophila melanogaster with 2 samples.

Results

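Of the 1725 places where aop-eGFP was found in Drosophila melanogaster embryos, 218 lay between genes and away from every promoter. A peak was taken as intergenic when its summit was outside all annotated genes and more than 500 bp from each transcription start site (TSS), transposons left out of the gene models. The peaks came from the list that the authors had thresholded on both replicates together, of which 1692 were on the 7 chromosome arms and could be placed against genes. The remaining arm peaks were 883 TSS-proximal peaks, 527 intron peaks and 64 other peaks within genes. The samples were whole embryos of the aop-GFP strain, 0 to 24 h old, that expressed an aop-eGFP fusion protein. Chromatin was precipitated with an antibody to GFP, in 2 biological replicates that form 1 group, so no condition was contrasted and every value mixes all cell types and stages of embryogenesis. No control library was analysed here, and the peak lists hold no read counts, so depth is unknown.

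The product of aop, also known as Yan, is an ETS-domain repressor of transcription. In the embryo and the eye it holds back differentiation until receptor tyrosine kinase signalling through Ras and MAPK phosphorylates it and removes it from the nucleus, and the ETS activator encoded by pnt competes for the same DNA sites. ETS proteins bind DNA around a GGAA core. Sequence between genes holds many Drosophila enhancers, which can act on a promoter over long distances, so the gene with the nearest TSS need not be the one that an intergenic site acts on.

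First shown are 9 intergenic peaks, chosen because the letters of the ETS site stand close to their summits, and they include the strongest intergenic peak of all. They are a selection: CG32986, hry and CG34342, among others, also had a site within 50 bp of the summit and are not shown. The peaks at CG32986 and hry were called in neither replicate on its own, and that at CG34342 in both. The site searched was A or C, then CGGAA, then A or G, then C or T, on both strands. Each line is the plus strand of dm6 within 60 bp of the summit, from the RefSeq Release 6 genome, with sites in capitals: the ETS site, which on the minus strand reads as its reverse complement, and in the croc window also GAGAGAG (as CTCTCTC).
msi (chr3R:25515491-25515611): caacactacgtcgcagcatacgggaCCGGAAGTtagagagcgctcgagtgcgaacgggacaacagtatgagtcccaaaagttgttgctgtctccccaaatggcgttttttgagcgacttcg
CG4702 (chr3R:12121339-12121459): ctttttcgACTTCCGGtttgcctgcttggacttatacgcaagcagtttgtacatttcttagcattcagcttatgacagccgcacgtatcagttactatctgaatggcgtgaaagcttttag
ed (chr2L:4022115-4022235): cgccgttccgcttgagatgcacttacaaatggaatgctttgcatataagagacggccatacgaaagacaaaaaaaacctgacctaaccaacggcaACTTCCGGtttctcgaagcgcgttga
jp (chr2L:9567452-9567572): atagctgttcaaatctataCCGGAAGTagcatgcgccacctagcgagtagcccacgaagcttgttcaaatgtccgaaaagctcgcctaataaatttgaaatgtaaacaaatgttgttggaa
Reg-2 (chr3L:611765-611885): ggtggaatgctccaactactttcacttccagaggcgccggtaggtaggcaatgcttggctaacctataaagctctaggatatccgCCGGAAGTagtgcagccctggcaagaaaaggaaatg
CG10479 (chr3L:5981071-5981191): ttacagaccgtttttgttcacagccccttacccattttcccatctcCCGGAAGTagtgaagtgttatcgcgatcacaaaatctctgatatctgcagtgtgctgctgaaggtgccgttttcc
CG7065 (chrX:9139312-9139432): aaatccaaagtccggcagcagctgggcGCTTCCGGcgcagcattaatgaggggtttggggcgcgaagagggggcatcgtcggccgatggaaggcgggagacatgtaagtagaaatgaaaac
lace (chr2L:15492304-15492424): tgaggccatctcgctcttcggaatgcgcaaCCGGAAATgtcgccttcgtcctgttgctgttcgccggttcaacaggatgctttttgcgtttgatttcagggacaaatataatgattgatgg
croc (chr3L:21479851-21479971): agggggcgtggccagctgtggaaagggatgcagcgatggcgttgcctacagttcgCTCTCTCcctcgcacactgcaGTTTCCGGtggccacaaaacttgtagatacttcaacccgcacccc
In msi, CG4702, ed and jp the neighbouring base completes the longer form ACCGGAAGT. The ETS letters were CCGGAAGT in msi, CG4702, ed, jp, Reg-2 and CG10479, CCGGAAGC in CG7065, CCGGAAAT in lace and CCGGAAAC in croc. The site at msi spanned bases 25515516 to 25515523 of arm 3R and was centred 31 bp from the summit.

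A further 4 windows are shown as a contrast, because they are strong or hold GAGAGAG but have no ETS site within 100 bp of the summit.
tara (chr3R:16222449-16222569): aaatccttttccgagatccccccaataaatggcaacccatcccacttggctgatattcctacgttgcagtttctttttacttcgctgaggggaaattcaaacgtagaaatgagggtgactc
CG7560 (chr3L:11418388-11418508): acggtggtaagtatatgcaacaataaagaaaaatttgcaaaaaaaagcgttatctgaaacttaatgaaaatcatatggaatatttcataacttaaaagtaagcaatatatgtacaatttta
RasGAP1 (chr3L:9855877-9855997): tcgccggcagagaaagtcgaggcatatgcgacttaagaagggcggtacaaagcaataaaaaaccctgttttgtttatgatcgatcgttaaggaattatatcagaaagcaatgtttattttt
Eaf6 (chr3L:5610766-5610886): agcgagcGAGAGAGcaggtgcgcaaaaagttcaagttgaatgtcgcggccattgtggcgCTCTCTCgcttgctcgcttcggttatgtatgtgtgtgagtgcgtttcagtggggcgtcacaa
The windows at tara, CG7560 and RasGAP1 belong to the peaks ranked 2, 6 and 7 among the 218. The Eaf6 peak ranked 62 and was called in replicate 2 on its own but not in replicate 1. The Eaf6 window holds GAGAGAG on each strand, and the sequence within 100 bp of its summit had a GC content of 49.3%, against 25.9% at CG7560.

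Strength of the intergenic peaks varied widely. Their signal value, which is the authors' own measure of enrichment with an unstated scaling, had a median of 61.8 (interquartile range 51.9 to 82.0, range 2.07 to 724). The median was 65.9 in TSS-proximal peaks and 65.1 in intron peaks, and the 33768 intergenic candidates that the authors had ranked but not kept had 15.1. Signal and thresholding come from the same procedure, so the difference from the candidates is a description alone. Of the 218 peaks, 36 exceeded a signal of 100, and their upper quartile of 82.0 stood against 90.4 over all arm peaks. Among the 50 strongest peaks on the arms 5 were intergenic, where 12.9% of all arm peaks were. The authors' intervals were 256 bp wide at 206 of the 218, and the 12 narrower ones (64 to 235 bp) all had a signal of at least 122.

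**Figure D1:**
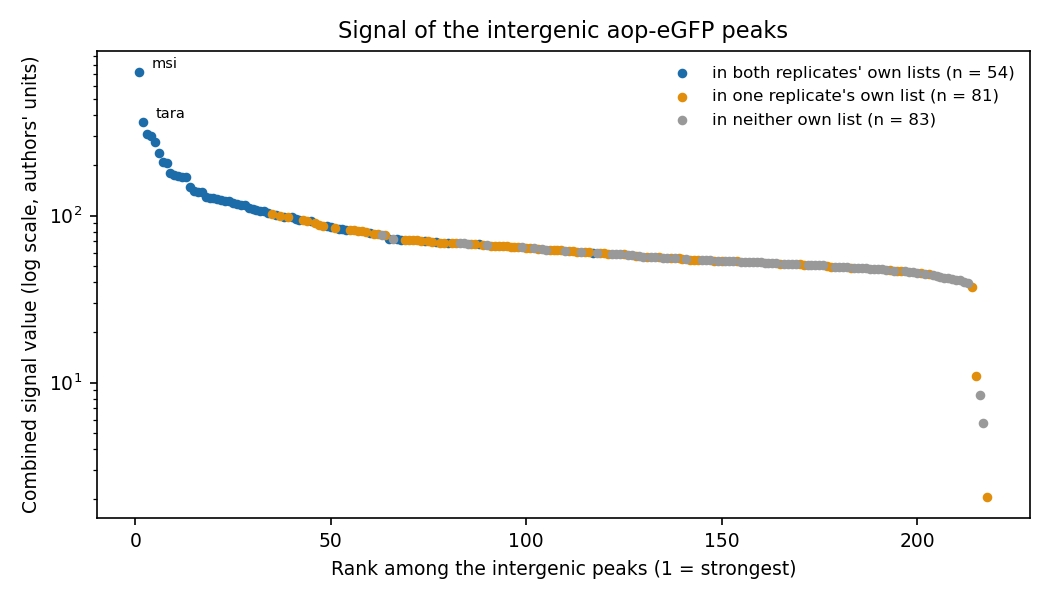
Combined signal value of each intergenic peak (log scale, authors' units) against its rank among the 218. Blue points stand for peaks in both replicates' own lists (54), orange for 1 of the lists (81) and grey for neither (83); msi and tara stand above the rest and 4 points lie below 20.

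The strongest intergenic peak lay 567 bp upstream of msi, which encodes Musashi, an RNA-binding protein of asymmetric division in sensory organ precursors. Its combined signal was 724, rank 2 of all 1725 peaks, and its own-list signals were 240 in replicate 1 (rank 4) and 495 in replicate 2 (rank 2). The nearest other peak to it was TSS-proximal, with the summits 433 bp apart. Next came a peak 886 bp from lncRNA:CR45643 and 3142 bp upstream of tara, which encodes the chromatin-associated regulator Taranis, with a combined signal of 362 and replicate signals of 142 and 225. The msi peak was higher than it in each replicate. A peak on arm 2R between Su(z)2, a Polycomb group gene, and CG13323 had 309 in the combined list, with 113 in replicate 1 and 196 in replicate 2. It lay 11899 bp from the TSS of CG13323 and 27446 bp beyond the 3' end of Su(z)2, in a gap of 36783 bp. It was followed by a peak between COX7AL2 and CG31668 with 298, some 3764 bp downstream of the TSS of CG31668, with replicate signals of 96.0 and 200. Upstream of dikar, a gene for a bromodomain protein, a peak 541 bp from the TSS, on the side of velo, had 277, with 96.0 and 186 in the replicates. A TSS-proximal peak was also the nearest to the dikar peak, with the summits 519 bp apart.

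Peaks ranked 6 to 13 among the 218 had combined signals of 170.04 to 237. The CG7560 peak (237) was the strongest of 4 in the same gap between genes. A peak 652 bp upstream of RasGAP1, which encodes a GTPase-activating protein that turns Ras off, had 210 in the combined list and 90.1 and 119 in the replicates. At CycB, the gene of the mitotic cyclin B, a peak of 206 lay 554 bp beyond the gene's 3' end, in the convergent gap of 1340 bp shared with blw. The peak assigned to chinmo, a zinc-finger gene of neuronal temporal identity, had 180 and lay 18415 bp upstream of it, between lncRNA:CR44603 and lncRNA:CR45695. CG4702, across the gap from dpr17, had 175, and CG3149, opposite lncRNA:CR42794, had 173. At 1535 bp upstream of aop itself, on the side of lncRNA:CR43751, a peak had 171, with 55.5 in replicate 1 and 114 in replicate 2. CG43131, divergent from RabGGTa, closed this set.

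The last 7 of the 20 strongest had combined signals of 127 to 147. Of these, 2 were assigned to CG43245, at 31578 bp upstream on the side of NijA (147) and at 4643 bp downstream beside lncRNA:CR44544 (141). The others were assigned to DNAlig3 (138, between Sol1 and Cyp9f2), Sf3b3 (138, between lncRNA:CR44537 and lncRNA:CR43883), Dip-B (129, between lncRNA:CR45590 and tRNA:Phe-GAA-1-6), CG13334 (128, facing CG42807) and sp3 (127, beside C15). All 20 were in both replicates' own lists and in the conservative set. The combined list was made from both replicates, so these 20 are no separate check of the replicates. Of the 20, 6 lay within 1 kb of a TSS and 2, msi and CG4702, had an ETS site.

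At the low end, 7 intergenic peaks had a signal under 40 and 4 of these were under 20: CG3847 (11.0), dally (8.37), wg (5.70) and CheA75a (2.07). Each of the 4 shared 32 to 57 bp with a stronger intergenic peak whose summit was 199 to 224 bp away, with signals of 37.4 at CG3847, 47.8 at dally, 39.7 at wg and 64.3 at CheA75a. The 218 peaks therefore covered 214 separate stretches, and a member of such a pair can share its replicate candidate with its partner. Among all arm peaks, 23 of the 24 with a signal under 20 likewise had another summit within 250 bp.

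Fewer intergenic peaks were called in each replicate on its own than in 1 replicate or in neither. Both own lists held 54 of 218 (24.8%, exact Clopper-Pearson 95% interval 19.2 to 31.1), 1 of the lists held 81 (37.2%) and neither held 83 (38.1%, 31.6 to 44.9). Over all 1692 arm peaks the share in both lists was 28.5%. The share in both was 31.0% of TSS-proximal peaks, a difference of -6.26 percentage points whose Newcombe 95% interval held 0 (-12.4 to 0.55), and 27.1% of intron peaks (difference -2.36, -8.94 to 4.76). Intergenic peaks were in neither list more often than TSS-proximal peaks (38.1% against 30.5%, difference 7.61, 0.68 to 14.8), while the difference from intron peaks had an interval that held 0 (3.16, -4.30 to 10.8). They overlapped the authors' conservative set less often, at 69.3% (151 of 218) against 78.9% of TSS-proximal peaks (difference -9.67, -16.6 to -3.27) and 79.5% of intron peaks (difference -10.2, -17.4 to -3.43). Classed by its own summits, the conservative list of 1473 peaks held 172 intergenic ones. Intervals here and below cover counting error only, and peaks of the same libraries are not replicates.

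Replicate 2's own list, of 1142 peaks, overlapped 126 of the intergenic peaks (57.8%), and replicate 1's, of 628 peaks, overlapped 63 (28.9%). Over all arm peaks these shares were 60.6% and 34.4%. The replicate 1 share was lower than in TSS-proximal peaks (difference -9.15 percentage points, -15.6 to -2.07). Its difference from intron peaks had an interval that held 0 (-2.79, -9.73 to 4.62). For replicate 2 the intervals held 0 against TSS-proximal (-4.72, -12.1 to 2.43) and intron peaks (-2.73, -10.5 to 4.91). Below the thresholds, a candidate was present in both replicates' ranked lists at 210 of 218 peaks (96.3%, 92.9 to 98.4), against 97.2% of all arm peaks. The combined list was made from both replicates, so this share is no separate check of them. Over those 210 the Spearman correlation of the replicates' signals was 0.434, against 0.536 over 859 TSS-proximal and 0.461 over 514 intron peaks, and over the 54 in both own lists it was 0.719. The peaks share libraries and inputs of the peak calling, and these correlations are descriptions. No scaling between the replicates' lists is given, so their signals are not set against each other by size.

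**Figure D2:**
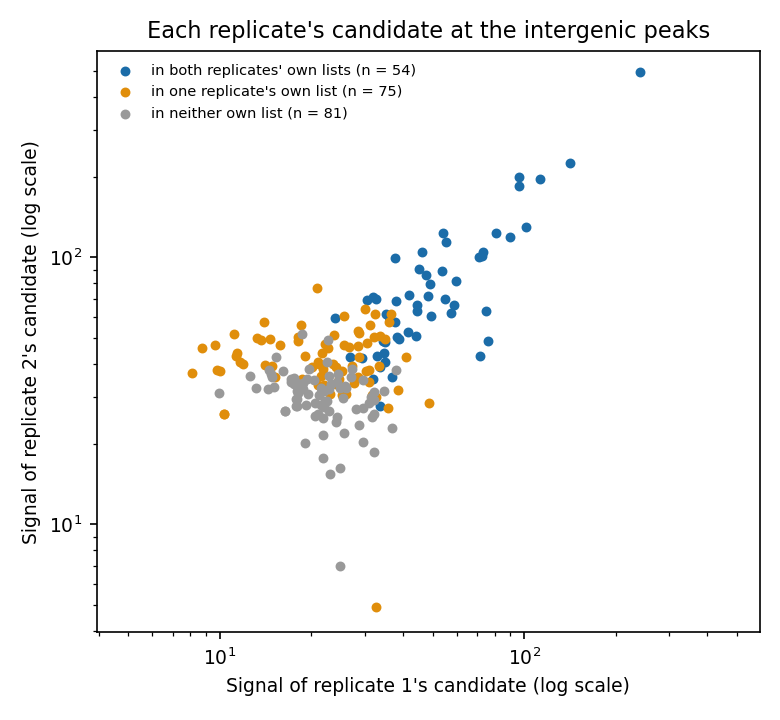
Signal of replicate 2's candidate (vertical) against that of replicate 1's candidate (horizontal), both on log scales, at the 210 intergenic peaks with a candidate in each. The 54 peaks in both own lists (blue) spread over a wide range, with a Spearman correlation of 0.719, while those in 1 list or neither form a cloud at low values.

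Intergenic peaks stood nearer to genes than intergenic candidates did. The median distance from summit to the nearest TSS of any gene was 2316.5 bp (order-statistic 95% interval 1877 to 3047), against 4635 bp (4562 to 4711) for the 33768 candidates. Within 1 kb, beyond the 500 bp limit, lay 51 peaks (23.4%) and 8.69% of candidates, a difference of 14.7 percentage points (9.56 to 20.8). Between 1 and 2 kb lay 49 peaks (22.5%) against 14.9% (difference 7.62, 2.57 to 13.6). Over 10 kb away were 21 peaks (9.63%) and 25.4% of candidates (difference -15.8, -19.1 to -11.1). The gaps between flanking genes that held the peaks had a median of 9783 bp, against 16443 bp for those that held candidates.

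**Figure D3:**
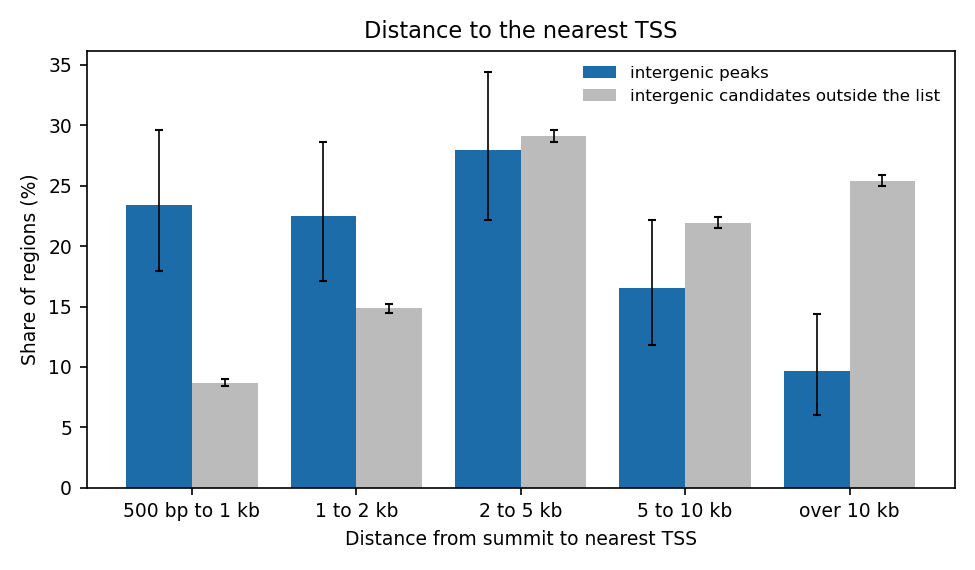
Share of regions (%) in each class of distance from summit to the nearest TSS, for the 218 intergenic peaks (blue) and the 33768 intergenic candidates outside the list (grey), with 95% Clopper-Pearson intervals. Peaks are the larger share in both classes under 2 kb and the smaller share over 10 kb.

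Near the limit the signals on either side overlapped. Just outside 500 bp were CG4586 (504 bp, signal 71.9), a peak assigned to L (507 bp, 61.3) and CG10479 (518 bp, 119). Just inside, and so counted as TSS-proximal, were summits at sano (491 bp, 99.7), salm (492 bp, 68.8) and CG8861 (500 bp, 47.1). Of the 5 intergenic peaks farthest from any TSS, 1 was among the 20 strongest. They were assigned to ATbp (46150 bp, signal 53.3), CG40472 (46001 bp, 57.0), CG43245 (33319 bp with 64.9, and 31578 bp with 147) and CG11041 (26756 bp, 54.2). The ATbp peak and 1 of 2 upstream of ed were the only intergenic peaks with a summit in an annotated transposon (0.917%, against 3.33% of candidates).

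Relative to the gene with the nearest protein-coding TSS, 144 peaks (66.1%) were upstream, against 59.9% of candidates, and the difference of 6.20 percentage points had an interval that held 0 (-0.34 to 12.2). Gaps between convergent genes held 42 peaks (19.3%) against 25.8% of candidates (difference -6.54, -11.2 to -0.77). Gaps between divergent genes held 60 (27.5%) against 23.3% (difference 4.24, -1.28 to 10.5). A noncoding RNA gene was the nearest gene of any kind at 70 peaks (32.1%), against 30.4% of candidates (difference 1.72, -4.14 to 8.20).

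Arm 3L held the most intergenic peaks, and 3R fewer than its share of candidates. On 3L were 73 peaks (33.5%) against 23.2% of candidates, a difference of 10.3 percentage points (4.37 to 16.8), and on 3R were 34 (15.6%) against 24.2% (difference -8.59, -12.8 to -3.17). Per megabase of intergenic sequence this was 8.04 peaks on 3L and 4.43 on 3R, with 6.85 on 2L, 5.64 on 2R and 4.33 on X and an average of 5.59 over 39.0 Mb. None lay on 4 or Y. By contrast 3L held 19.9% of TSS-proximal peaks. The 3L share was 39.4% in replicate 1's own intergenic peaks (26 of 66, difference 15.4, 4.51 to 27.5), 33.8% in replicate 2's (46 of 136, difference 9.87, 2.45 to 18.2) and 32.0% in the conservative list. The 3R difference had an interval that held 0 in replicate 1's own peaks (-7.86, -15.0 to 2.91) and in replicate 2's (-4.58, -10.4 to 2.93), but not in the conservative list (-7.54, -12.4 to -1.22). When only the strongest peak of each chain of intergenic peaks within 50 kb was counted, a comparison chosen after seeing the data, 3L held 40 of 147 (27.2%, difference 4.04, -2.52 to 11.8) and 3R held 30 (20.4%, difference -3.78, -9.52 to 3.46).

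**Figure D4:**
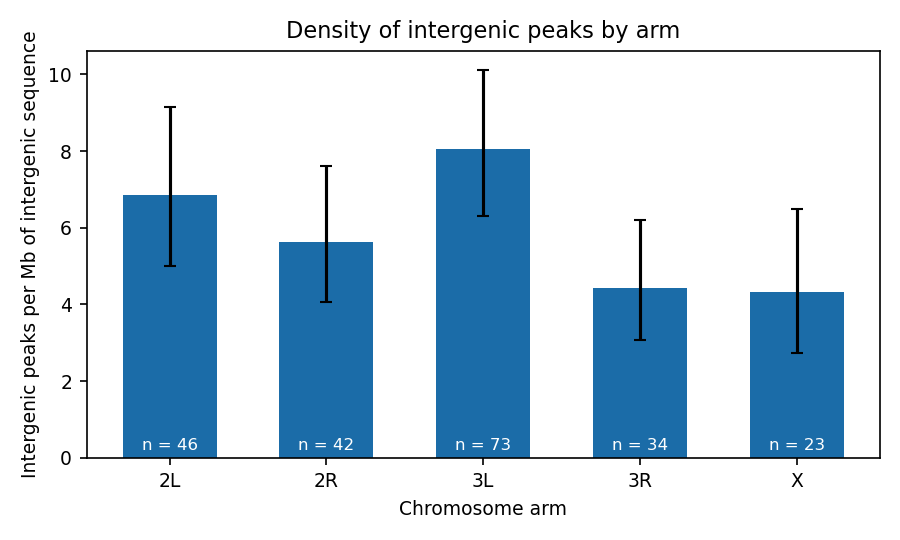
Number of intergenic peaks per megabase of intergenic sequence on each large chromosome arm, with exact Poisson 95% intervals as bars and the number of peaks in each column. 3L stands highest at 8.04 per Mb and X (4.33) and 3R (4.43) lowest.

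Some intergenic peaks stood in groups, at a share near that of all arm peaks. Another peak of the list lay within 5 kb of 87 intergenic peaks (39.9%), against 36.9% of all arm peaks. The share was 31.5% of TSS-proximal peaks (difference 8.42, 1.41 to 15.7) and 42.9% of intron peaks (difference -2.98, -10.6 to 4.84). The nearest such peak was itself intergenic at 54 of the 87, TSS-proximal at 26 and within a gene at 7. Chained within 5 kb there were 24 clusters with 55 intergenic peaks, and 5 had at least 3. Of the 24 clusters, 4 were the overlapping pairs described above. Without the weaker member of every overlapping pair among arm peaks, a comparison chosen after seeing the data, 79 of 214 intergenic peaks (36.9%) had another peak within 5 kb, against 29.0% of TSS-proximal peaks (difference 7.97, 1.05 to 15.2), and there were 20 clusters with 47 intergenic peaks.

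The largest clusters of this kind had 4 peaks each. One was the CG7560 gap on 3L (11416846 to 11422580), with signals of 126, 46.8, 237 and 52.7 along the arm. Another was on 2R (13561561 to 13567531) between CG13334 and CG42807, with 59.0, 128, 50.3 and 51.5. A cluster of 3 on 2R (12958036 to 12959630) was assigned to CG13321 and lay 6494 to 7833 bp beyond the 3' end of Psc, the Polycomb group gene next to it, with signals of 98.8, 69.9 and 62.0. A cluster on 3L (815239 to 822175) near Sf3b3 and CG13898 had 50.8, 138 and 86.0. The last, also on 3L (3394526 to 3395620), was assigned by nearest TSS to Ids, but its neighbour to the right was sty, 5660 to 6499 bp away beyond the 3' end. Its signals were 67.6, 122 and 44.4, and another peak (55.6) lay 312 bp beyond the 3' end of sty, which encodes Sprouty, an antagonist of receptor tyrosine kinase signalling.

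Within 50 kb, the longest chain was 8 peaks on 3L (724590 to 857926), with combined signals of 50.8 to 138. The stretch spans emc, which encodes a helix-loop-helix inhibitor of proneural proteins, but no peak of the chain was assigned to emc. The peaks were assigned to CG13896, hng3, CG13898, Sf3b3 and dpr20. A chain of 7 on 2L (14458180 to 14557147) lay around noc, the gene of a zinc-finger regulator, with signals of 53.2 to 71.1. Upstream of chinmo, 4 peaks spread over 16860 bp with signals of 180, 62.2, 63.2 and 83.1.

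By nearest TSS, the 218 peaks went to 178 of 13968 protein-coding genes, a share of 1.27%. Of the 178 genes, 148 had 1 intergenic peak, 23 had 2, 4 had 3 and 3 had 4, namely CG7560, chinmo and CG43245. A TSS-proximal peak was also assigned to 31 of them and an intron peak to 13, while at least 135 had neither kind. The shares of all protein-coding genes with such peaks are not given here, so these counts are a description alone. The gene lists described next were drawn up with results of these data known, and are read only against the 1.27%. No list share was taken over the candidates, and the width of the gaps beside list genes was not allowed for.

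In receptor tyrosine kinase, Ras and MAPK signalling, 3 of 55 genes (5.45%) had an intergenic peak: RasGAP1 (210), aop (171 and 44.5) and sty (55.6). Among genes reported as targets of aop, 5 of 19 did, namely aop, ed (106 and 93.7), mid (59.6), sty and wg (39.7 and 5.70). That list draws on knowledge of this factor and holds aop itself, so it is no independent evidence. Echinoid, the product of ed, is an immunoglobulin-domain adhesion protein that dampens Egfr signalling, and its stronger peak lay 9202 bp upstream, with 31.8 in replicate 1 and 71.1 in replicate 2. The wg peaks, 11142 and 10938 bp upstream of the Wnt gene wingless and between it and Wnt4, were in neither replicate's own list. The same held for the mid peak, the sty peak and the weaker aop peak. The T-box gene mid had its peak 9247 bp beyond its 3' end.

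Signalling lists beyond these each had 1 or 2 genes with an intergenic peak. Their shares ran from 3.57% (Notch) to 8% (Wingless), above the 1.27% of all protein-coding genes, but rest on those 1 or 2 genes. Dpp and BMP signalling had 1 of 25, the glypican gene dally (47.8 and 8.37), and Notch signalling had 1 of 28, the Bearded family gene E(spl)malpha-BFM (60.1, 1794 bp upstream). Wingless signalling had 2 of 25, wg and dally. Neither dally peak was in a replicate's own list.

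Genes of patterning and cell fate gave 3 of 35 in segmentation and homeotic genes: slp2 (107), wg and hry (39.5). The slp2 peak, between the forkhead genes slp1 and slp2, had 37.8 in replicate 1 and 68.4 in replicate 2 and was in both own lists. Among mesoderm and heart regulators 2 of 25 had a peak, Doc2 (77.9) and mid, both T-box genes. Nervous system fate genes gave 4 of 38: msi, nerfin-1 (56.1), insc (53.9), whose product orients asymmetric division, and the homeobox gene Dr (52.0). Tracheal and epithelial genes gave 1 of 24, ed. Among the peaks of these patterning and cell fate genes, those at wg, hry, mid and Dr were in neither replicate's own list.

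The Polycomb and chromatin list gave 1 of 21 by nearest TSS, ph-d (69.0, in both own lists), a subunit gene of the repressive complex PRC1. By immediate neighbour, 4 of its genes stood beside an intergenic peak, where 1.68% of all protein-coding genes did so: ph-d, ph-p, Psc and Su(z)2, which code for PRC1 subunits or a close relative and lie as 2 pairs of adjacent paralogs. The ph-p peaks had signals of 69.0 (shared with ph-d) and 66.6. By the same count the reported aop targets had 5 genes, segmentation and homeotic genes 4, the receptor tyrosine kinase, Wingless and nervous system lists 3 each, mesoderm and cell cycle genes 2 each, and the Dpp, Notch and tracheal lists 1 each. Cell cycle and death genes gave 2 of 23, CycB (206) and the apoptosis gene rpr (48.8 and 48.0). The weaker rpr peak was in neither replicate's own list. No test of a list was made, and each share rests on 1 to 5 genes.

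Close to their summits, 18 intergenic peaks (8.26%, 4.97 to 12.7) had an ETS site within 100 bp, against 4.53% of intergenic candidates, a difference of 3.73 percentage points (0.75 to 8.15). Candidates had the higher GC content, at a median of 45.3% against 40.5% in the peaks, and with the candidates weighted to the GC deciles of the peaks their share was 3.93%. TSS-proximal peaks had 7.02% and intron peaks 5.88%, and the differences from both had intervals that held 0 (1.24, -2.28 to 5.90, and 2.37, -1.41 to 7.11). The longer site ACCGGAAGT, each match of which also counts as an ETS site, was in 6 intergenic peaks (2.75%, 1.02 to 5.89). It was in 0.195% of candidates (difference 2.56, 1.07 to 5.68). Among TSS-proximal peaks 5 of 883 had it (0.566%, difference 2.19, 0.52 to 5.32), and among intron peaks 2 of 527 (0.380%, difference 2.37, 0.59 to 5.51). These intervals rest on few matches and are not adjusted for the 23 motifs searched. The 6 were msi, CG4702, ed and jp, shown above, and Zasp52 (93.1) and CG42524 (51.3). Those shown above were in both replicates' own lists, Zasp52 was in 1 of the lists and CG42524 in neither.

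The 5 strongest intergenic peaks with an ETS site were msi, CG4702 (175), CG7065 (124), CG14762 (115) and ed (106). In replicate 1 their signals were 240, 54.1, 54.8, 58.9 and 31.8, and in replicate 2 they were 495, 124, 69.9, 66.1 and 71.1, in that order. All 5 were in both replicates' own lists. Over all 18, both own lists held 10 (55.6%, 30.8 to 78.5), against 44 of the 200 peaks without a site (22.0%, 16.5 to 28.4), a difference of 33.6 percentage points (10.8 to 54.1). Signal moved with this, at a median of 81.0 with a site and 61.0 without. Among peaks above the median signal, both own lists held 10 of 12 with a site (83.3%, 51.6 to 97.9) and 43 of 97 without (44.3%, 34.2 to 54.8). At or below the median signal they held 0 of 6 with a site (upper exact limit 45.9%) and 1 of 103 without (0.971%). This split was not among the planned comparisons. Signal still varied within each part, and signal and own lists come from the same libraries, so the split cannot separate the site from signal.

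ETS sites were gathered at the summits. Of the 34 sites within 250 bp of an intergenic summit, 15 lay within 50 bp (44.1%, 27.2 to 62.1), against 22.6% of 3850 sites around candidates (21.3 to 24.0). The shorter ETS core, A or C, then GGA, then A or T, was in 68.8% of peaks and 71.5% of candidates (difference -2.70, -9.15 to 3.10).

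The letters GAGAGAG, which the GAGA factor encoded by Trl binds, were within 100 bp of 14 intergenic summits (6.42%, 3.56 to 10.5), against 2.48% of candidates (difference 3.94, 1.38 to 8.01) and 2.14% with candidates weighted by GC. TSS-proximal peaks had them at 10.3% (difference -3.88, -7.25 to 0.58) and intron peaks at 7.40%. Unlike the ETS site, they did not gather at the summit: with overlapping matches joined, 6 of 49 runs within 250 bp lay within 50 bp (12.2%, 4.63 to 24.8), against 22.7% around candidates. Matches overlapped each other in places, with 13 matches at the Dip-B peak and 5 at CG43245. Both GAGAGAG and an ETS site were present at msi, croc and CG42524.

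**Figure D5:**
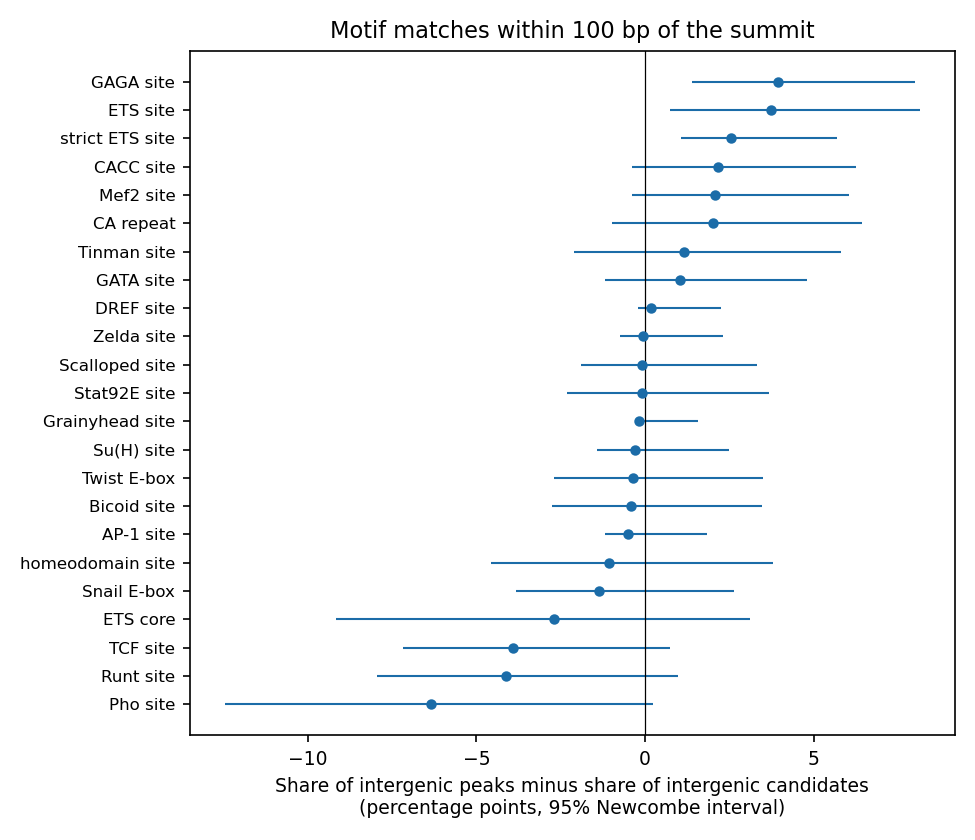
Share of intergenic peaks minus share of intergenic candidates with a match within 100 bp of the summit, in percentage points with Newcombe 95% intervals, for the 23 motifs searched. The intervals of the ETS site, its longer form and the GAGA site lie above 0, and the other 20 hold 0.

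No other motif differed from the candidates beyond its interval. These were CACACACA, the DREF site TATCGATA, CAGGTAG (Zelda), CATATG (Twist), CAGGTG (Snail), TAATTA (homeodomain), AACCGGTT (Grainyhead), CATTCCA (Scalloped), TTCNNNGAA (Stat92E, any base at N), GCCAT (Pho) and TAATCC (Bicoid). Others had positions where the search allowed a pair of bases, written out or given as N: TGACTCA or TGAGTCA (AP-1), NGTGNGAA (Su(H)), TCAAGTG or TTAAGTG (Tinman), NCTTTGN (TCF), AGATAAG or TGATAAG (factors of the GATA family), ACCNCA (Runt) and NGGGTGNN (Sp1 and Klf proteins). The ETS core and the Mef2 site completed the search, on both strands throughout. The Pho letters were in 36.2% of peaks and 42.6% of candidates (difference -6.35, -12.5 to 0.24), and with candidates weighted by GC the difference was -2.70. The DREF site, bound by Dref and BEAF-32 at promoters, was in 1 intergenic peak, dikar (0.459%), against 5.78% of TSS-proximal peaks (difference -5.32, -7.10 to -2.82). Intron peaks had it at 0.569% (difference -0.11, -1.26 to 2.02) and candidates at 0.296%. A Grainyhead site was in 0 of 218 (upper exact limit 1.68%) against 0.172% of candidates.

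Around the aop gene itself, within 50 kb, 32 arm peaks were found and 4 of them were intergenic: the 2 upstream of aop, 1 assigned to COX7AL2 (87.2) and the CG31668 peak (298). The 25 intergenic candidates there had a median signal of 20.4, against 15.1 for all intergenic candidates. The embryos carry an insertion of tagged aop, and its part in these 4 peaks was not tested. Without them the ETS share was 8.41% and its difference from candidates 3.88 percentage points.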

How the data were processed

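Peaks of aop-eGFP ChIP-seq from 2 biological replicates were taken as the authors deposited them, on dm6. Ranking and thresholding used the irreproducible discovery rate, per the labels, for each replicate and for both together, and the text files deposited beside the lists show that the replicates share some inputs. No aligner or peak caller is named (not given in the sources used here). Each signal value is the authors' own enrichment measure with an unstated scaling, so signals of different lists are given side by side but not set against each other by size. The score is a rank score the authors deposited, at least 830 in the thresholded list.

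Summits were placed against Ensembl release 115 gene models on 7 arms; 33 peaks on unplaced sequence were left out. Intergenic candidates were those of the combined ranked list of 147076 that did not overlap the thresholded list by 1 bp (33768 of 143341 on the arms). Overlap of at least 1 bp also defined presence in a replicate's own or ranked list. Sequence within 100 bp of the summit, from the Release 6 genome, was searched for 23 motifs on both strands. Genes were assigned by the nearest protein-coding TSS; 11 gene lists matched the annotation in full after 3 older symbols had been replaced. With 1 group of 2 replicates, no test over samples exists and no p-value is given: shares have Clopper-Pearson and differences Newcombe 95% intervals. Genes named were the 20 strongest peaks, peaks assigned to list genes, the 5 farthest from a TSS, the 5 strongest with an ETS site, neighbours of the 500 bp limit and clusters of at least 3 within 5 kb. Genes in wider chains, the peaks holding ACCGGAAGT and the flanking Polycomb genes were named after their values were seen. Members, lists and motifs were chosen with earlier results of these data known. Python 3.11.15, numpy 2.4.6, pandas 2.3.3 and scipy 1.17.1 were used, and the classification, motif search and intervals were tested on simulated data.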

Additional observations from a re-analysis of the deposited data

How the results depend on the processing

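For 9 results (the number of intergenic peaks, their median signal, GC content and TSS distance, the share in both own lists, and the ETS and GAGAGAG shares and differences) no alternative run reversed a direction; the distance contrast, gap orientation, conservative overlap, neither-list share and ACCGGAAGT were not recomputed. The intervals of the 3L and 3R differences held 0 with 1 peak counted per 50 kb chain, and that of 3R in each replicate's own list. The ETS share stayed above that of the candidates under all 12 alternatives (difference 2.61 to 10.6 percentage points), and the GC content stayed between 39.3% and 40.8% under all 9. The median TSS distance followed the definition of the class, at 1482 bp with a 250 bp window, 3407 bp with 1 kb and 3847 bp with protein-coding genes only. In the conservative list the median signal was 66.2 and the share in both own lists 31.4%; among the stronger peaks of the combined list, split at its median signal, there were 96 intergenic peaks, with a median signal of 86.8 and a share of 55.2%. With 1 replicate left out, the other's own list gave 66 to 136 intergenic peaks, median signals of 42.5 to 48.5 (each on its own list's scale), ETS shares of 12.5% to 15.2% and ETS differences of 7.83 to 10.6 points. Motifs within 250 bp gave shares of 15.1% for the ETS site and 15.1% for GAGAGAG, with a GAGAGAG difference of 9.51 points (5.36 to 14.9). Within 50 bp the GAGAGAG share was 1.83% and its difference 0.56 points, with an interval that held 0 (-0.56 to 3.35), so the GAGAGAG comparison depends on the width searched. The peaks near aop, the 50 kb chains and the overlapping pairs were alternatives added after seeing the data. No paired analysis was possible because there is 1 group. Depth is unknown and no control library was used, so no limit of detection can be given.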
